A study of Mus musculus with 6 samples.

Results

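Genes of cholesterol and fatty acid synthesis, with the genes that control them through the SREBP pathway, were followed in mRNA-seq libraries of mouse D4 embryoid bodies (EBs). The genes were chosen by their names, as members of the pathway. Of 33 symbols listed, 32 were found among the 15266 genes of the expression table, and all 32 had enough reads to be tested. *Hmgcs1* was not analysed here. EBs were made from W9.5 mouse embryonic stem cells (mESCs), which were kept in LIF and then grown for 4 days in suspension, in medium with serum and without LIF. The EVX1-Δfs group is clone 14, which carries small frameshift mutations in exon 2 of both *Evx1* alleles and still transcribes the antisense RNA *Evx1as*. The Del#3 group (*Evx1/Evx1as*Δ2.6kb) lacks 2.6 kb of the locus, with the promoters of *Evx1* and *Evx1as*. Both groups therefore lack functional EVX1, and the comparison asks whether the added loss of *Evx1as* and of the *Evx1* transcript goes with a difference in these genes. There were 3 libraries of each line. By the design text each side by side differentiation had a day of its own, and the replicate number was taken to mark that day in both lines. EVX1-Δfs is a single clone and the number of Del#3 clones is not stated, so that a difference between lines and a difference between clones cannot be told apart. No unedited EBs were compared here.

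Cholesterol is built from acetyl-CoA through mevalonate, isoprenoid pyrophosphates, squalene and lanosterol, and fatty acids are built from the same acetyl-CoA by carboxylation and chain extension. Both routes are set by the SREBP transcription factors, which SCAP carries from the endoplasmic reticulum to the Golgi for cleavage when sterols are low, and which INSIG proteins hold back when sterols are plentiful. Dividing embryonic cells need both products for new membranes, and sterols also modify Hedgehog ligands in the embryo.

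Recovered reads on listed genes numbered 9024579 to 15699124 per library, and the replicate 1 library was the deepest in both lines. *Evx1* had 2582 to 4023 reads in the EVX1-Δfs libraries and 28 to 48 reads in the Del#3 libraries. *Evx1as*, listed as 5730457N03Rik, had 571 to 879 and 21 to 30 reads. The labelled tissue was checked against marker lists: all 8 pluripotency markers, all 8 primitive streak and mesoderm markers and all 6 definitive endoderm markers passed the filter on low counts, as did 5 of 10 visceral endoderm markers. No marker was at 0 in every library, and *Cubn*, a visceral endoderm receptor, was at 0 in Del#3 replicate 2. In EBs, which mix cell types, fewer cells of a type and less RNA per cell cannot be told apart.

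All 32 genes had reads in every library of these EBs. To compare genes with each other, reads were scaled to RPM and divided by the kb of the longest coding transcript (RPM per kb), and levels are given as the mean over 6 libraries. *Fdps*, which makes farnesyl pyrophosphate, was at the top with 170 ± 26.7 RPM per kb (SD, n = 6). *Acly*, which makes cytosolic acetyl-CoA from citrate, followed with 141 ± 23.8 RPM per kb. *Mvd* and *Pmvk*, the last steps of the mevalonate route, stood at 110 ± 15.1 and 109 ± 10.8 RPM per kb, and these neighbours did not differ beyond their spread.

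The lowest members were *Hsd17b7*, a sterol 3-keto reductase, at 2.11 ± 0.668 RPM per kb and *Ggps1*, which makes geranylgeranyl pyrophosphate, at 2.36 ± 1.25 RPM per kb. Within pairs of related genes, 1 member was often far above the other per length. The desaturase *Scd2* stood at 67.8 ± 16.1 RPM per kb and its neighbour on chromosome 19, *Scd1*, at 12.7 ± 4.71 RPM per kb. *Srebf2*, whose product acts mainly on sterol genes, stood at 55.6 ± 10.9 RPM per kb and *Srebf1*, whose product acts more on fatty acid genes, at 24.6 ± 6.06 RPM per kb. *Insig1* stood at 30.3 ± 3.55 RPM per kb and *Insig2* at 3.74 ± 1.37 RPM per kb. For each of these 3 pairs, every library had more of the first gene than any library had of the second. *Scd1* and *Scd2* are similar in sequence, and reads that map to both could not be examined in a table of counts.

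**Figure D1:**
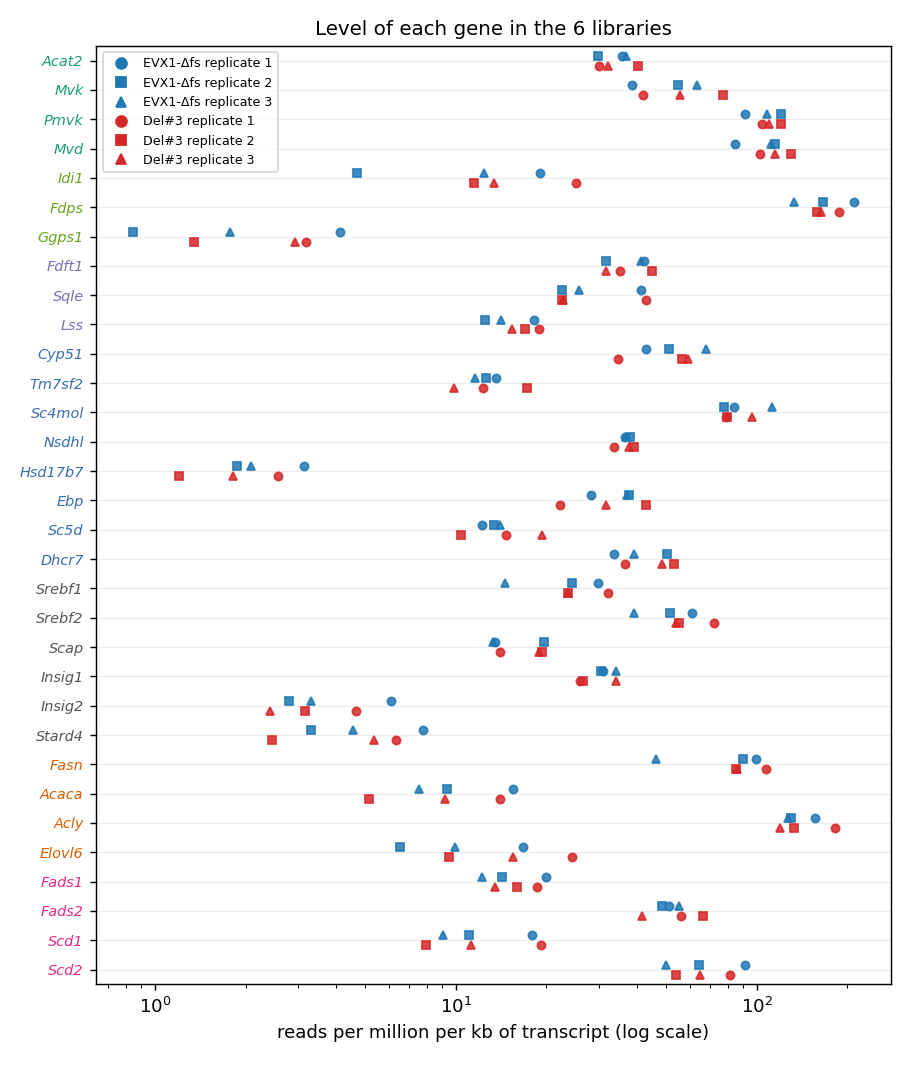
Level of each of the 32 genes in RPM per kb of transcript (log scale), with blue symbols for the 3 EVX1-Δfs libraries and red symbols for the 3 Del#3 libraries, and with a shape for each replicate day. *Fdps* is at the right with a mean of 170 RPM per kb and *Hsd17b7* at the left with 2.11 RPM per kb, and blue and red symbols overlap for every gene.

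Between the lines, none of the 32 genes was called. With limma on log2(normalized count + 1) and Benjamini-Hochberg adjustment over 12891 genes, 0 of 32 passed an adjusted p of 0.05, against 0.0155% of all genes tested, which were *Evx1* and *Evx1as* themselves. At an unadjusted p under 0.05 there were also 0 of 32, against 1.03% of all genes. edgeR's quasi-likelihood test and DESeq2 likewise called 0 of 32, against 2 and 3 genes of the whole table, and each had 0 of 32 at an unadjusted p under 0.05, against 1.12% and 1.33% of all genes. With the replicate day as a block, limma called 0 of 32, against 0.0233% of all genes, and 1 of 32 had an unadjusted p under 0.05, against 4.62% of all genes. That gene was *Elovl6*.

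Log2 fold changes (Del#3 against EVX1-Δfs) ran from -0.41 to 0.57, with 16 above and 16 below 0, and their median was 0.01 against 0.00 for all genes tested. For 25 of 32 genes (78.1%) the 95% interval of the fold change lay within 2-fold in both directions, against 61.1% of all genes tested. The 7 genes whose interval reached past 2-fold were *Idi1*, *Ggps1*, *Hsd17b7*, *Insig2*, *Stard4*, *Acaca* and *Elovl6*. For those 7, the interval from 3 libraries per line includes changes of over 2-fold. The libraries of the lines overlapped in all 32 genes, whereas in 3.51% of all genes tested all libraries of 1 line lay above all of the other.

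**Figure D2:**
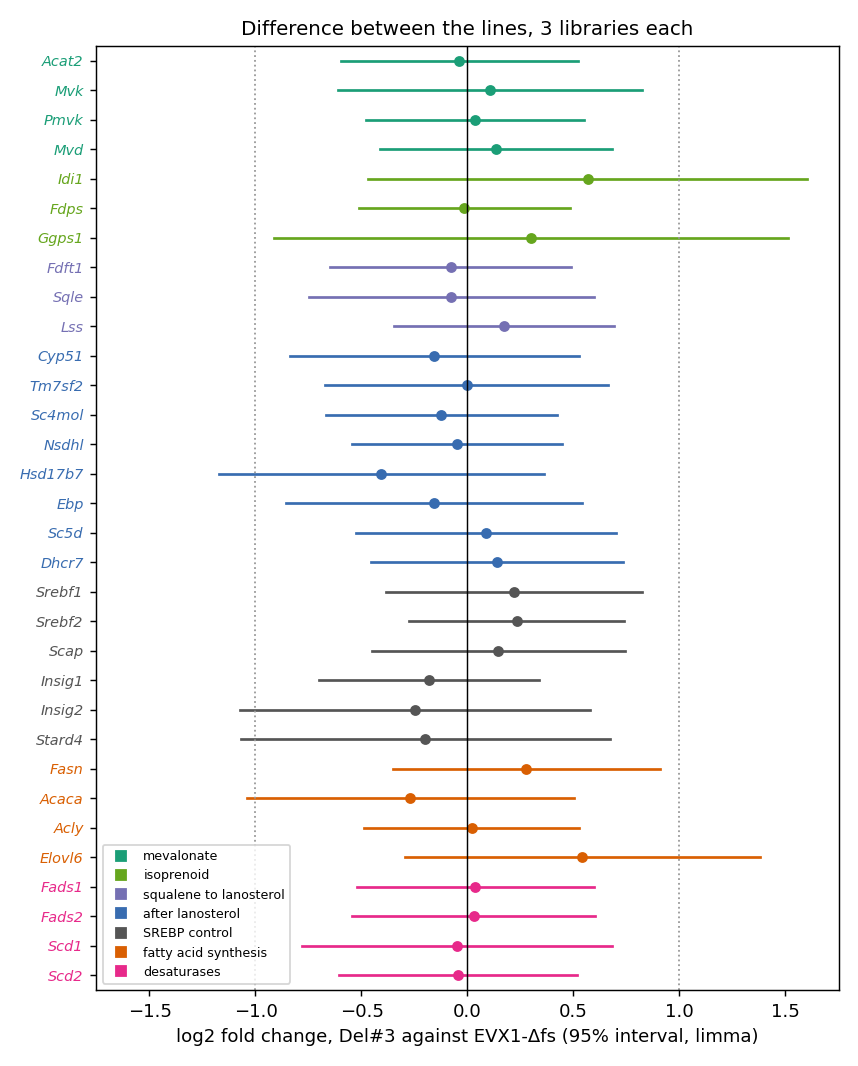
Log2 fold change of each of the 32 genes in Del#3 against EVX1-Δfs (points, limma, 3 libraries per line) with its 95% interval (bars), coloured by role, with dotted lines at 2-fold. Every interval includes 0, and those of 25 genes lie between the dotted lines.

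None of the 4 mevalonate genes was called between the lines. *Acat2* (cytosolic acetoacetyl-CoA thiolase, the entry step), *Mvk* (mevalonate kinase), *Pmvk* (phosphomevalonate kinase) and *Mvd* (mevalonate diphosphate decarboxylase) had log2 fold changes of -0.04, 0.11, 0.04 and 0.13, with standard errors (SE) of 0.23 to 0.32. Their summed level was 4189 to 5813 normalized counts in the EVX1-Δfs libraries and 4322 to 6714 in the Del#3 libraries. In both lines the lowest sum was that of replicate 1.

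Of the isoprenoid genes, *Idi1* and *Ggps1* varied most among libraries of all members. *Idi1* (isopentenyl diphosphate isomerase, chromosome 13, 8884852 to 8891641 in NCBIM37) had 564, 142 and 402 normalized counts in EVX1-Δfs and 702, 373 and 400.5 in Del#3, each in the order of replicates 1, 2 and 3. A single library, EVX1-Δfs replicate 2, lay far below the rest. The log2 fold change was 0.57 (SE 0.47, 95% interval -0.47 to 1.60, limma adjusted p = 1.00), and without that library it was -0.01. *Ggps1* had 21.1 to 101.0 normalized counts in EVX1-Δfs and 36.0 to 73.3 in Del#3, with a log2 fold change of 0.30 (SE 0.55) that was -0.26 without EVX1-Δfs replicate 2. *Fdps* had 2240.0 ± 429 normalized counts in EVX1-Δfs and 2192 ± 77.5 in Del#3 (SD, n = 3), a log2 fold change of -0.01.

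From squalene to lanosterol, *Fdft1* (squalene synthase) and *Lss* (lanosterol synthase) had log2 fold changes of -0.08 and 0.17. *Sqle* (squalene epoxidase, a rate-limiting step after mevalonate) had 1180.0, 657 and 799 normalized counts in EVX1-Δfs and 1150.0, 700.2 and 657 in Del#3. In both lines replicate 1 was the highest library, and the lines did not separate (log2 fold change -0.08, SE 0.30). Of the exon bases of *Fdft1*, 26.9% lie opposite exons of *Ctsb* on the other strand.

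Of the 8 genes after lanosterol, 2 had a fold change above 0 and 6 below 0. *Cyp51* (lanosterol 14-demethylase) had 1746, 2131 and 3012 normalized counts in EVX1-Δfs and 1328, 2512 and 2429.7 in Del#3. Here replicate 1 was the lowest library of both lines, and the log2 fold change was -0.16 (SE 0.31). *Hsd17b7* (chromosome 1, 171879666 to 171899372 in NCBIM37) had 149.8, 91.4 and 109 normalized counts in EVX1-Δfs and 116, 62.7 and 87.6 in Del#3. It was lower in Del#3 in 3 of 3 replicate pairs, yet the lines overlapped, and with a log2 fold change of -0.41 (SE 0.34, 95% interval -1.17 to 0.36) it was not called (limma adjusted p = 1.00). After a correction for length and GC content it was -0.55, and it was -0.62 to -0.18 when 1 library was left out. *Tm7sf2*, *Sc4mol*, *Nsdhl*, *Ebp*, *Sc5d* and *Dhcr7*, enzymes of the later steps of sterol synthesis, had log2 fold changes of -0.16 to 0.14. *Dhcr7*, the last enzyme of the Kandutsch-Russell route, was higher in Del#3 in 3 of 3 pairs, by 0.14 (SE 0.27), but by -0.03 without Del#3 replicate 2 and -0.02 without EVX1-Δfs replicate 1. Of the exon bases of *Tm7sf2*, 15.3% are shared on the same strand with 1110014N23Rik, so its reads could be split between both genes.

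None of the 6 regulators of the pathway was called between the lines. *Srebf1* (chromosome 11, 60012591 to 60036083 in NCBIM37) had 1323, 1103 and 704 normalized counts in EVX1-Δfs and 1339, 1145 and 1062 in Del#3. *Srebf2* (chromosome 15, 81977696 to 82035806) had 3163, 2719 and 2207 in EVX1-Δfs and 3517, 3104 and 2825 in Del#3. *Srebf1* and *Srebf2* were higher in Del#3 in 3 of 3 pairs, by log2 fold changes of 0.22 (SE 0.27) and 0.23 (SE 0.23), within the spread between replicates. After the length and GC correction the values were 0.07 and 0.08, and that of *Srebf1* was -0.04 without EVX1-Δfs replicate 3. *Insig1*, itself a target of SREBP, had 846, 851 and 1015 normalized counts in EVX1-Δfs and 667, 793 and 947 in Del#3, lower in 3 of 3 pairs by a log2 fold change of -0.18 (SE 0.23), which was -0.09 after the correction. *Scap*, *Insig2* and *Stard4*, a sterol carrier, had log2 fold changes of 0.15, -0.25 and -0.20, with SEs of 0.27, 0.37 and 0.39. Of the exon bases of *Scap*, 18.9% lie opposite exons of another gene on the other strand.

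Among the fatty acid synthesis genes, *Elovl6* had the largest log2 fold change. *Elovl6*, which extends palmitate to stearate (chromosome 3, 129235304 to 129341413 in NCBIM37), had 1028, 410.2 and 668 normalized counts in EVX1-Δfs and 1416, 636 and 965 in Del#3. It was higher in Del#3 on each of the 3 days, by log2 differences of 0.46, 0.63 and 0.53, but the lines overlapped. The log2 fold change was 0.54 (SE 0.38, 95% interval -0.30 to 1.38, limma adjusted p = 1.00), and it was 0.29 once libraries were corrected for length and GC content and 0.20 to 0.87 when 1 library was left out. With the replicate block in limma the unadjusted p was 0.00924 and the adjusted p was 0.788, so that *Elovl6* was not called in either fit.

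*Fasn*, the fatty acid synthase, had 9866, 9125 and 5017 normalized counts in EVX1-Δfs and 10067, 9239.5 and 8653 in Del#3. EVX1-Δfs replicate 3 stood apart at the low end, and the log2 fold change of 0.28 (SE 0.28) was -0.03 without it and 0.09 after the length and GC correction. *Acaca*, which makes malonyl-CoA, had 942 and 808 normalized counts in EVX1-Δfs replicates 2 and 3 and 1523 in replicate 1. In Del#3 it had 553 and 918 in replicates 2 and 3 and 1301 in replicate 1, and the log2 fold change was -0.27 (SE 0.35). It was -0.47 after the length and GC correction, -0.56 without Del#3 replicate 1, 0.06 without Del#3 replicate 2 and -0.003 without EVX1-Δfs replicate 1. *Acly* had 6533 ± 582 normalized counts in EVX1-Δfs and 6679 ± 1175 in Del#3 (SD, n = 3), a log2 fold change of 0.02.

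The 4 desaturases had log2 fold changes of -0.05 to 0.04 between the lines, and none was called. *Scd1* (chromosome 19, 44468941 to 44482199 in NCBIM37) had 896, 564 and 493 normalized counts in EVX1-Δfs and 908, 434 and 569 in Del#3. *Scd2* (chromosome 19, 44368166 to 44381354) had 5174, 3719 and 3064 in EVX1-Δfs and 4348, 3323 and 3707 in Del#3. In all 4 of these sets of 3 libraries, replicate 1 was the highest. *Fads1* and *Fads2*, the delta-5 and delta-6 desaturases of polyunsaturated fatty acids, had log2 fold changes of 0.04 (SE 0.25) and 0.03 (SE 0.26).

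Within single days, the members leaned different ways. On the day of replicate 1, 13 of 32 genes (40.6%) were higher in Del#3, against 48.0% of all genes tested. On the day of replicate 2 it was 25 of 32 (78.1%), against 52.1% of all genes, and on the day of replicate 3 it was 15 of 32 (46.9%), against 50.1%. The median log2 differences (Del#3 minus EVX1-Δfs) of the members were -0.11, 0.16 and -0.03. Single genes kept 1 direction in all 3 pairs in 7 of 32 members (21.9%), against 23.1% of all genes. They were *Hsd17b7*, *Dhcr7*, *Srebf1*, *Srebf2*, *Insig1*, *Fasn* and *Elovl6*.

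The members were also compared between the replicate days. In an F test of the replicate day with the line in the model (limma, Benjamini-Hochberg adjustment over all genes), 1 of 32 genes was called, against 4.24% of all genes tested, and 11 of 32 (34.4%) had an unadjusted p under 0.05, against 27.7% of all genes. The gene called was *Elovl6* (unadjusted p = 0.000673, adjusted p = 0.0350). In both lines it was highest in replicate 1, then in replicate 3, and lowest in replicate 2. The likelihood ratio test of DESeq2 called 6 of 32, which were *Idi1*, *Sqle*, *Stard4*, *Scd1*, *Acaca* and *Elovl6*, against 11.2% of the 11641 genes it tested. In limma, 0 were called without EVX1-Δfs replicate 1 (1.503% of all genes) and 0 without Del#3 replicate 1 (1.62%), and 10 were called without Del#3 replicate 3 (24.2% of all genes), so that the count moved with that of the whole table.

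On the deposited values, replicate 1 lay high in some roles and low in others. In 16 of 32 genes (50%) both replicate 1 libraries lay above the other 4, against 22.2% of all genes tested. They were all 4 fatty acid synthesis genes (*Fasn*, *Acaca*, *Acly* and *Elovl6*), all 3 isoprenoid genes (*Idi1*, *Fdps* and *Ggps1*), 3 of 4 desaturases (*Fads1*, *Scd1* and *Scd2*), 4 of 6 regulators (*Srebf1*, *Srebf2*, *Insig2* and *Stard4*), *Sqle* and *Hsd17b7*. In 8 of 32 genes (25%) both lay below the other 4, against 22.7% of all genes tested. They were 3 of 4 mevalonate genes (*Mvk*, *Pmvk* and *Mvd*), 4 of 8 genes after lanosterol (*Cyp51*, *Nsdhl*, *Ebp* and *Dhcr7*) and *Scap*. This division by role was read from the values and was not tested, and after a length and GC correction fewer of the fatty acid and mevalonate genes followed it. Scaling by TMM factors gave 17 genes above and 8 below, against 23.6% and 21.1% of all genes. Scaling by total reads gave 17 and 7, against 27.1% and 17.9% of all genes. Total reads moved the median replicate 1 shift of all genes from 0.04 to 0.15 on the log2 scale, and changed the sign of the shift in *Fdft1*, *Tm7sf2* and *Fads2*, which are in neither group.

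Sums over each role describe the same values on the scale of normalized counts. Summed fatty acid synthesis genes, of which *Fasn* is the largest part, had 19605 to 20658 in the replicate 1 libraries and 12834 to 17066 in the other 4. Summed desaturases had 6707 to 7581 and 4973 to 5573. Summed mevalonate genes had 4189 to 4322 in the replicate 1 libraries and 5228 to 6714 in the other 4, and summed genes after lanosterol had 5611 to 6474 and 7477 to 9125. Summed isoprenoid genes had 3033 to 3364 and 2299 to 2621, and summed regulators had 6503 to 6538 and 4922 to 6200. In 6 of the 7 roles the replicate 1 libraries thus did not overlap with the other 4, upwards in 4 roles and downwards in the mevalonate genes and the genes after lanosterol. Summed squalene to lanosterol genes overlapped, with 2986 to 3312 and 2226 to 3043. Such a gap was not particular to these roles, since the sums of 5 of 6 other lipid lists lay lower in the replicate 1 libraries without overlap. Among them, the other fatty acid synthesis and activation genes had 11507 to 11948 in the replicate 1 libraries and 12383 to 13731 in the other 4, opposite to the fatty acid synthesis members. Fatty acid oxidation genes had 10039 to 11171 and 13027 to 16043.

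**Figure D3:**
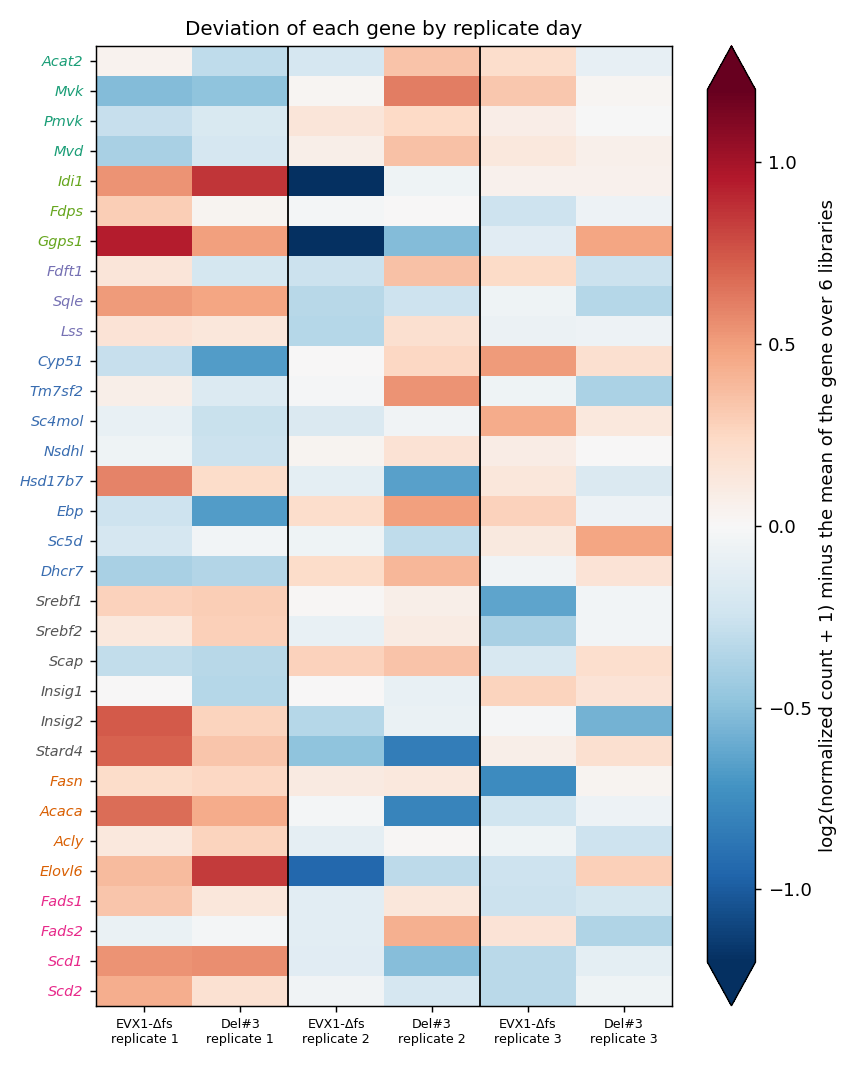
Deviation of each of the 32 genes from its mean over 6 libraries, on the log2(normalized count + 1) scale, with red for higher and blue for lower and with columns paired by replicate day. Both replicate 1 columns are red for the 4 fatty acid synthesis genes and blue for *Mvk*, *Pmvk* and *Mvd*, and *Idi1*, *Ggps1* and *Elovl6* are darkest blue in EVX1-Δfs replicate 2.

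The shift of replicate 1, taken as replicate 1 minus the mean of replicates 2 and 3 and averaged over the lines, was largest upwards for *Ggps1* (log2 1.08), *Idi1* (1.05), *Elovl6* (0.91), *Acaca* (0.84) and *Scd1* (0.82). It was largest downwards for *Mvk* (-0.75), *Cyp51* (-0.72), *Ebp* (-0.69) and *Dhcr7* (-0.55). The lines moved alike on that day. Deviations of EVX1-Δfs and Del#3 from their line means had a Pearson correlation of 0.90 across the 32 members for replicate 1, 0.60 for replicate 2 and 0.25 for replicate 3, against 0.74, 0.32 and -0.05 across the 12891 genes tested. These are correlations across genes of the same 6 libraries, and genes are not independent replicates.

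**Figure D4:**
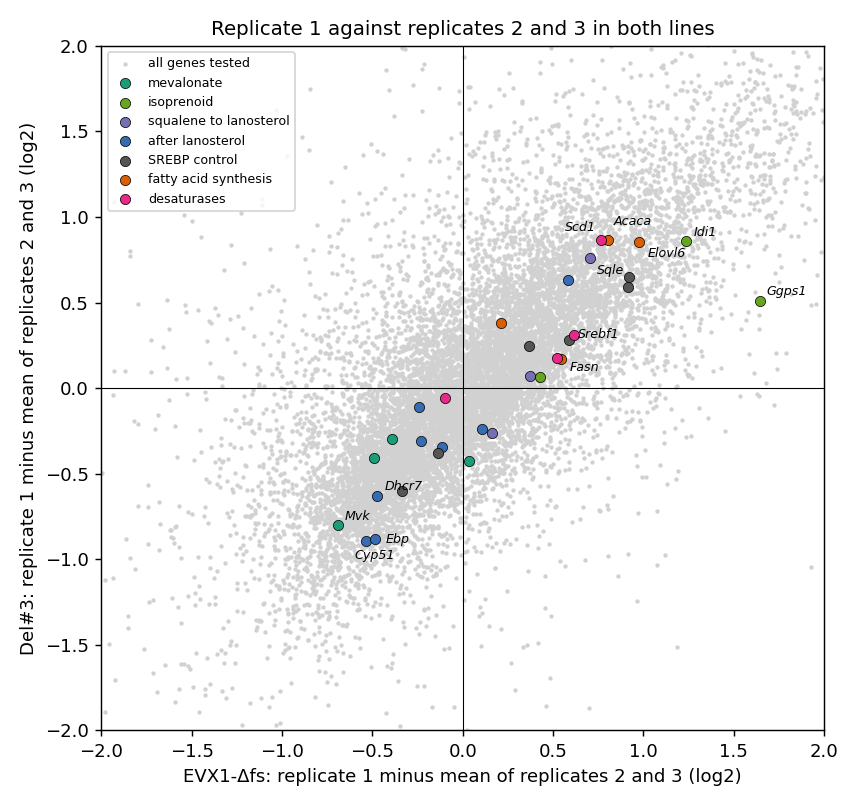
Shift of replicate 1 against the mean of replicates 2 and 3 (log2) in EVX1-Δfs (horizontal) and in Del#3 (vertical) for the members, coloured by role, and for all genes tested, in grey (genes beyond the axis limits are not drawn). *Elovl6*, *Idi1*, *Acaca* and *Scd1* lie at the upper right with mean shifts of 0.82 to 1.05, and *Mvk*, *Cyp51* and *Ebp* at the lower left with -0.75 to -0.69.

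The other days set apart fewer members. Both replicate 2 libraries lay above the other 4 in 3 of 32 genes (*Pmvk*, *Dhcr7* and *Scap*), against 10.8% of all genes tested, and below in 4 (*Idi1*, *Ggps1*, *Stard4* and *Elovl6*), against 13.3%. Both replicate 3 libraries lay above in 3 (*Sc4mol*, *Sc5d* and *Insig1*), against 6.47%, and below in 4 (*Fdps*, *Srebf1*, *Fads1* and *Fasn*), against 5.35%.

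Transcript length and base composition moved with the replicate 1 shift. Over the 32 members, the shift had a Spearman correlation of -0.48 with GC content and 0.56 with transcript length, against -0.37 and 0.39 over the 11994 genes with an annotated coding transcript. *Elovl6*, with a GC content of 44.0% over 5951 bases, lay above in replicate 1, and *Mvk*, with 59.4% over 1686 bases, lay below. Other members went against the relation with GC content, as *Srebf1*, with 58.4%, lay above and *Cyp51*, with 46.2%, lay below. After a correction of each library for length and GC content, chosen after the data were seen, both replicate 1 libraries lay above the other 4 in 9 of 32 genes (20.6% of all genes) and below in 9 of 32 (26.1% of all genes). All 9 genes above, and 6 of the 9 below, had lain on that side before. Fatty acid synthesis genes above went from 4 of 4 to 1 of 4 (*Acly*) and mevalonate genes below from 3 of 4 to 1 of 4 (*Mvk*), whereas genes after lanosterol below went from 4 of 8 to 6 of 8.

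The correction brought 21 of 32 members nearer to 0, and the median absolute shift went from 0.44 to 0.32 on the log2 scale, against 0.41 and 0.36 for all genes. *Elovl6* went from 0.91 to 0.28, *Acaca* from 0.84 to 0.21 and *Fasn* from 0.36 to -0.01. *Sqle* stayed at 0.75 after 0.73, *Srebf1* at 0.40 after 0.43, and *Cyp51* went from -0.72 to -1.003. In the F test after correction, 1 of 32 genes was called, against 3.71% of all genes, which was *Cyp51* (limma adjusted p = 0.0410), and *Elovl6* was not (adjusted p = 0.325).

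**Figure D5:**
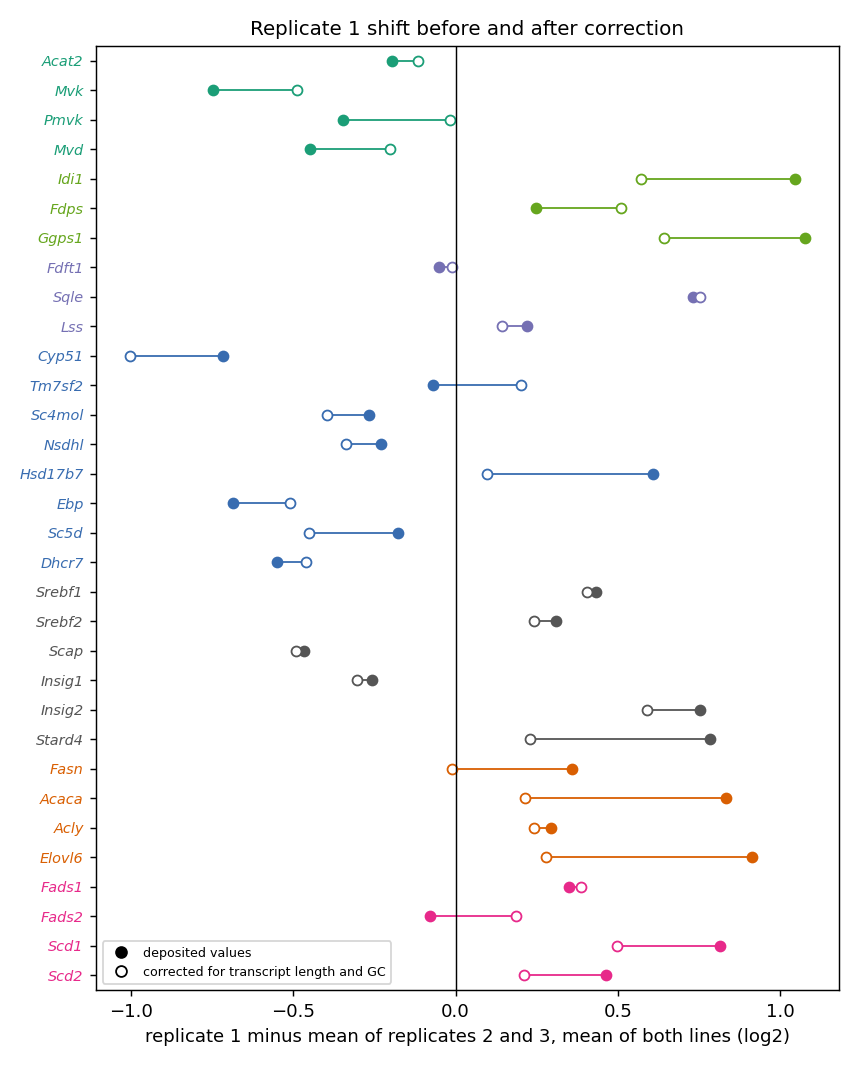
Shift of replicate 1 against replicates 2 and 3 (log2, mean of both lines) for each of the 32 genes before (filled) and after (open) correction for transcript length and GC content. *Elovl6* moves from 0.91 to 0.28, whereas *Sqle* stays near 0.75 and *Cyp51* moves away from 0, to -1.003.

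Sums and counts of the marker lists are given for the same day. The summed primitive streak and mesoderm markers had 7193 to 8894 normalized counts in the replicate 1 libraries and 9319 to 10419 in the other 4, and 2 of 8 (25.0%) lay below in both replicate 1 libraries, against 22.7% of all genes. The summed definitive endoderm markers had 3021 to 3801 in the replicate 1 libraries and 3934 to 4722 in the other 4, with 3 of 6 below and 1 above. The summed pluripotency markers had 18411 to 21952 and 16778 to 27930, with 1 of 8 below, and the 10 visceral endoderm markers had 132 to 345 and 133 to 185, which overlapped, with 2 of 5 tested above (40.0%, against 22.2% of all genes) and 1 below. Between the lines, the sums of all 4 marker lists overlapped and 0 markers were called by limma. The pluripotency marker *Zfp42* was lower in all Del#3 libraries (log2 fold change -0.82, SE 0.28, limma unadjusted p = 0.0156, adjusted p = 1.00), as was the definitive endoderm marker *Sox17* (-0.35, SE 0.22). No other tested marker separated the lines, against 3.51% of all genes tested that did. Fold changes lay below 0 in 6 of 8 pluripotency, 6 of 8 mesoderm, 5 of 6 definitive endoderm and 2 of 5 tested visceral endoderm markers. The list medians were -0.14, -0.17, -0.17 and 0.26, against 0.00 for all genes. The part of depth, length, GC content and these markers in the replicate 1 shift was not tested.

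Promoters were searched for motifs of factors known to act on these genes. Of the 32 members, 25 had a RefSeq promoter window in GRCm38.p6, from 250 bases before to 50 after the start of transcription, *Sc4mol* under its RefSeq symbol *Msmo1*. *Fdps*, *Fdft1*, *Sqle*, *Stard4*, *Fads1*, *Scd1* and *Scd2* had no window and were not searched. The NF-Y box CCAAT, on either strand, was found in 20 of 25 members (80%), against 42.9% of the 11110 genes of the table with a window. The Sp1 box GGGCGG was found in 20 of 25 members (80%), against 67.6%, and the E-box CACGTG in 5 of 25 (20%), against 11.4%. The strict sterol response element TCACNCCAC was found in 0 of 25 members, against 1.46%, which says only that these letters were not in these windows. A gene with more than 1 start was counted once if any of its windows held the motif.

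The 250 bases before the start are shown for *Mvk* and *Elovl6*. On the deposited values, *Mvk* was lowest among the replicate 1 shifts and *Elovl6* was the gene called between days by limma. After the length and GC correction, *Cyp51* was the lowest and the gene called. The stretches are chr5:114444019-114444268 (*Mvk*) and chr3:129532136-129532385 (*Elovl6*), both on the plus strand of GRCm38.p6, 5′ to 3′. Capitals mark CCAAT and GGGCGG on either strand.
Mvk: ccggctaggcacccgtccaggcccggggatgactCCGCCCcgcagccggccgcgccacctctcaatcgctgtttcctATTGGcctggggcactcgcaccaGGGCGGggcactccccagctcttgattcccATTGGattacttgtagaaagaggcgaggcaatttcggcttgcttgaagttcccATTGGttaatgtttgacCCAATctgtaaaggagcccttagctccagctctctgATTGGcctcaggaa
Elovl6: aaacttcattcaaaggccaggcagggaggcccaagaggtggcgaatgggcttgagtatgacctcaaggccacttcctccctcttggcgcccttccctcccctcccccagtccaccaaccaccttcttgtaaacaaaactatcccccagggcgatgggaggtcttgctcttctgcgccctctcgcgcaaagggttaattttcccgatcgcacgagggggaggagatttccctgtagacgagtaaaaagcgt
*Mvk* held 5 CCAAT boxes and 2 GGGCGG boxes in this stretch, and *Elovl6* held 0 of either. These genes do not stand for all members with a shift in the same direction. *Ggps1* and *Idi1*, with the largest upward shifts, held 3 and 2 CCAAT boxes in their promoter windows. A relation between boxes and the shift was not tested.

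Other genes of lipid metabolism were taken from lists, written with earlier results of these data known. Of 13 tested genes of sterol and isoprenoid synthesis, 0 were called between the lines by limma with or without the block, and 0 had an unadjusted p under 0.05. The smallest unadjusted p belonged to 0610007P14Rik (the mouse Erg28 gene, a sterol enzyme scaffold) with a log2 fold change of -0.41 (SE 0.24), whose Del#3 libraries (287 to 311 normalized counts) all lay below the EVX1-Δfs libraries (346 to 424), and to *Por*, the electron donor of CYP51 and SQLE, with 0.26 (SE 0.22).

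Of 12 SREBP processing genes, 16 of sterol uptake and export, 16 of glycerolipid synthesis and 16 of fatty acid oxidation, 0 were called between the lines, and 0 had an unadjusted p under 0.05 in limma. edgeR and DESeq2 also called 0 in these lists. *Mbtps2*, a protease that cleaves SREBP, had the smallest p of its list (log2 fold change 0.45, SE 0.34), followed by *Rnf139* (-0.25, SE 0.25). *Lrp1*, a lipoprotein receptor, led its list (0.48, SE 0.52). *Pnpla3* (-0.48, SE 0.34) and *Pcyt1a* (-0.33, SE 0.28) led glycerolipid synthesis, and *Hadhb* (-0.39, SE 0.26) and *Etfdh* (-0.29, SE 0.26) led fatty acid oxidation.

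Of 22 other fatty acid synthesis and activation genes, 0 were called between the lines and 1 had an unadjusted p under 0.05 in limma, against 1.03% of all genes tested. This was *Acsl4*, which activates arachidonate, with 330, 236 and 247 normalized counts in EVX1-Δfs and 684, 426 and 403 in Del#3. All its Del#3 libraries lay above all its EVX1-Δfs libraries, and the lines did not overlap in 3.51% of all genes tested. The log2 fold change was 0.87 (SE 0.29), but *Acsl4* was not called (limma unadjusted p = 0.0124, adjusted p = 1.00). With the replicate block in limma the unadjusted p was 0.00113 and the adjusted p was 0.693. After the correction for length and GC content the log2 fold change was 0.34. *Ptpla* followed with -0.51 (SE 0.32). Between days, 2 of 95 genes of these lists were called, against 4.24% of all genes tested. *Sec23a*, a coat protein that carries SCAP and SREBP out of the endoplasmic reticulum (limma adjusted p = 0.0396), and *Acsl3*, which activates fatty acids (limma adjusted p = 0.0267), lay above the other 4 libraries in both replicate 1 libraries. In replicate 1, 7 of 13 other sterol synthesis genes were below and 3 above, and 7 of 16 fatty acid oxidation genes were below and 2 above, against 22.7% and 22.2% of all genes. The remaining lists lay both ways. Below and above were 6 and 4 of 22 other fatty acid genes and 3 and 2 of 12 SREBP processing genes. They were 4 and 5 of 16 sterol uptake and export genes and 3 and 4 of 16 glycerolipid synthesis genes.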

How the data were processed

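mRNA-seq was performed by the authors on D4 EBs with 3 replicates per line, differentiated side by side on different days. Mapping to mm9 by the authors used TopHat2, then TMAP for the Ion Proton reads, counting used HTSeq at standard settings, and DESeq2 followed; versions are not given in the sources used here. The signal values deposited by the authors are normalized counts, and 100% were whole multiples of 1 step per library (tolerance 0.1 reads), from which reads were recovered. Genes were kept by filterByExpr (minimum count 10, 12891 genes). limma (version 3.58.1, R 4.3.3) with a trend was fitted to log2(normalized count + 1) with a pseudocount of 1, so that fold changes are on that scale and are understated for low genes, and p-values were adjusted over all genes tested (Benjamini-Hochberg, threshold 0.05). Days were compared by an F test with the line in the model. Replicates are separate differentiations of 1 EVX1-Δfs clone and of Del#3, whose number of clones is not stated, so p-values measure only their spread. The design text of the series states that each side by side differentiation had its own day, and the replicate number was taken to mark it. Deviations of same-numbered libraries had correlations of 0.74, 0.32 and -0.05.

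Alternatives were edgeR (version 4.0.16) and DESeq2 (version 1.42.0) on recovered reads, the replicate block in each tool, pseudocounts of 0.1 and 5, no filter or a minimum of 10 reads throughout, TMM factors or total reads, an adjusted p under 0.1 and leaving out each library. A loess correction (span 0.3) for transcript length and GC content, alone and with the block, was added after seeing the data, as was the scaling of the replicate 1 counts. Lengths, positions and overlaps came from the GENCODE annotation of NCBIM37, in which 14287 of 15266 symbols matched 1 gene. The methods were also run on simulated data with known changes, but the share of changes recovered is not given here.

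All members are named. Values in every library were given for rate-limiting or sensing steps, for genes past the threshold and for the 3 largest fold changes; of other lists, the 2 genes with the smallest p were named, except 1 that is not reported here, and genes called between days were named after their values were seen. Members and lists were chosen with earlier results of these data known.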

Additional observations from a re-analysis of the deposited data

How the results depend on the processing

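Between the lines, 0 members and 0 genes of the other lipid lists were called in every alternative run, at an adjusted p under 0.1 as well. The lowest adjusted p of any member was 0.734, from DESeq2 with the replicate block, and 0.999 over fits without a block. The block changed no call: with it, 0 members were called in limma, edgeR and DESeq2, and the log2 fold change of *Elovl6* was 0.54 in limma, 0.56 in edgeR and 0.54 in DESeq2. With the block and the length and GC correction it was 0.29. An unadjusted p under 0.05 was given to 1 member, *Elovl6*, with the block in limma, edgeR and DESeq2 (3.21% to 4.62% of all genes), to *Hsd17b7* and *Acaca* after the length and GC correction (1.34% of all genes) and to *Idi1* and *Elovl6* without EVX1-Δfs replicate 1 (3.47%). Of 608 alternative fold changes, 604 stayed within 1 SE of the value reported, and 69, in 27 members, had the opposite sign. The log2 fold change of *Idi1* turned to -0.013 without EVX1-Δfs replicate 2 and ran up to 0.98 when other libraries were left out. *Ggps1* (-0.26 without EVX1-Δfs replicate 2, 0.85 without EVX1-Δfs replicate 1) and *Fasn* (-0.03 without EVX1-Δfs replicate 3) moved by over 1 SE.

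Between the days, calls among members went from 1 to 6 with DESeq2 and to 6 at an adjusted p under 0.1, and leaving out 1 library gave 0 to 10. Neither replicate 1 library could be left out without losing the call, whereas leaving out any of the other 4 gave 5 to 10. The share of all genes called moved too, from 4.24% to 1.503% and 1.62% without a replicate 1 library and to 11.1% to 24.2% without one of the others. Calls among the 95 other lipid genes tested went from 2 to 6 of 94 with DESeq2 (11.2% of all genes), to 7 after the length and GC correction (3.71%) and to 9 at an adjusted p under 0.1 (12.4%), and leaving out 1 library gave 0 to 18 (1.503% to 24.2%). The cause was not tested. With 18 to 153 recovered reads, *Ggps1* was the member most limited by depth.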
